A study of Xenopus laevis with 3 samples.

Results

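Glycolysis turns glucose into pyruvate, and lactate dehydrogenase interconverts pyruvate and lactate. The genes measured here encode enzymes of these steps: hk1, gpi, aldoa, gapdh, pgk1, pgam1, eno1, pkm, ldha and ldhb. Their rows were found by symbol after a final .L or .S was stripped, which gave 19 rows for the 10 genes, of 34694 rows in all. The samples were whole testis of untreated males of Xenopus laevis, the African clawed frog, from outcrossed laboratory stock, in 3 poly-A libraries that differ in processing date. All 3 belong to a single group, with no treated or mutant animals, and are named the replicate 1, 2 and 3 libraries. Nothing in the labels states that each library came from its own animal. The p-values therefore cover how ratios between copies or genes vary among these 3 libraries, and that variation may be technical. The comparisons possible are between copies and between genes within the same libraries.

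Xenopus laevis is allotetraploid, so many genes have a copy on an L and a copy on an S chromosome, called homeologs. Hexokinase and phosphofructokinase are regulated entry points of glycolysis in animals, and pyruvate kinase is its last step. In mammals, Sertoli cells supply lactate to germ cells. Mammalian spermatids and sperm also use isozymes of their own for several steps, among them GAPDHS, PGK2 and LDHC. The symbols gapdhs, pgk2, ldhc, hk3, pfkl, eno2 and ldhal6b matched no row and were not analysed here.

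The libraries held 70580016, 68378714 and 61212304 counts. Levels are TPM, counts scaled to gene length and library size, as deposited by the authors. Germ cell markers were abundant: the summed TPM of 12 spermatid rows was 1677, 2235 and 1881 in the replicate 1, 2 and 3 libraries, and the 12 rows were all detected. The libraries stood apart in smooth muscle and Leydig markers. The 14 smooth muscle rows, all detected, summed to 371, 718 and 1781 TPM, and the 10 Leydig rows, all detected, to 667, 915 and 1594 TPM. The 15 Sertoli rows, all detected, summed to 749.5, 575 and 865 TPM. The 9 endothelium rows, all detected, summed to 39.7, 30.8 and 32.4 TPM. The 17 skeletal muscle rows, 8 of them detected, summed to 232, 249 and 199 TPM. Whole-testis counts carry no cell identity, and more cells of a type cannot be told apart from more RNA per cell.

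Transcripts of all 10 genes were present, mostly at high levels. Detection meant a CPM, a count scaled to a library total of 1000000, of at least 0.5 and over 3 counts in every library. It was met by 19 of 19 rows, against 66.7% of all rows and 81.6% of rows with a gene name. The median level of the 19 rows was 115 TPM, against 3.25 TPM over all rows and 9.72 TPM over detected rows. A mean above 100 TPM was reached by 11 rows, and 8 ranked within the first 1000 of 34694 rows. The lowest of the 11, pgam1.L at 101 TPM, ranked 1670 among all rows. The rows summed to 3476, 2761 and 3094 TPM in the replicate 1, 2 and 3 libraries, or 0.311 ± 0.0360% of all TPM (SD, n = 3).

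The hexokinase gene hk1, whose product phosphorylates glucose, was the lowest of the 10. Its only row by symbol, hk1.L, had 6.93, 3.36 and 3.68 TPM in the replicate 1, 2 and 3 libraries, from 1254, 600 and 594 counts. The replicate 1 library was the high one, at 2.06 times the lowest. Glucose-6-phosphate isomerase, the next enzyme, was far more abundant. Its gpi.L copy had 167, 90.5 and 89.4 TPM in the replicate 1, 2 and 3 libraries, and gpi.S had 66.1, 47.3 and 49.4 TPM. Both copies were highest in the replicate 1 library, and the L and S values did not overlap.

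Aldolase A splits fructose-1,6-bisphosphate into triose phosphates. Its aldoa.L copy had 44.0, 17.8 and 28.2 TPM in the replicate 1, 2 and 3 libraries, and aldoa.S had 34.3, 29.8 and 43.3 TPM. These ranges overlapped, and L was above S in the replicate 1 library alone. Glyceraldehyde-3-phosphate dehydrogenase, which forms the NADH of the pathway, had the highest level of the 10 genes. The gapdh.L row had 725, 573 and 604 TPM and ranked 224 among all rows, and gapdh.S had 362, 228 and 364 TPM and ranked 405. The L values were above the S values in every library, without overlap.

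Phosphoglycerate kinase makes the first ATP of the pathway, and its gene was represented by pgk1.L and by a row named pgk1 with no ending. The pgk1.L row had 215, 248 and 182 TPM in the replicate 1, 2 and 3 libraries. The row without an ending had 50.5, 53.3 and 10.47 TPM, from 4163, 4332 and 770 counts. It was the most variable of the 19 rows, with a coefficient of variation of 62.9%, and its replicate 3 value was the low one. Within each library pgk1.L was higher than pgk1, by 4.26-fold, 4.65-fold and 17.4-fold in the replicate 1, 2 and 3 libraries. The mean log2 difference was 2.81 ± 1.13 (SD, n = 3), or 7.01-fold. An exact sign-flip permutation test, two-sided, gave p = 0.25, and 3 libraries cannot give less. This ratio was chosen after its values were seen, and it was 4.45-fold without the replicate 3 library.

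The row without an ending and pgk1.L have different neighbours in the NCBI gene table. Among the 5 coding genes on either side, the symbols next to pgk1.L and those next to pgk1 had none in common (0 shared). Each of the 8 L and S pairs of the other members shared from 1 to 6. In that table pgk1 also overlaps LOC121394133, a row that had 0, 0 and 1 counts in the replicate 1, 2 and 3 libraries. Having no .S ending, pgk1 was not tested as a homeolog. Whether it is a processed copy of the gene (a retrocopy) was not tested, and its values enter the summed pgk1 level. Reads that match both rows could have been dropped or split in counting, so their ratio is uncertain.

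Phosphoglycerate mutase and enolase carry the pathway to phosphoenolpyruvate. The pgam1.L copy was the steadiest row, at 101, 103 and 100.3 TPM in the replicate 1, 2 and 3 libraries, a coefficient of variation of 1.26%. Its partner pgam1.S had 73.2, 50.5 and 60.9 TPM, below pgam1.L in every library. For enolase 1, eno1.L had 209, 220 and 247 TPM in the replicate 1, 2 and 3 libraries, and eno1.S had 169, 151 and 140.1 TPM. The eno1 ranges did not overlap. Summed over both copies, eno1 was nearly level across libraries, at 378, 371 and 388 TPM.

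Pyruvate kinase M, the enzyme of the last ATP-forming step, had copies of overlapping levels. The pkm.L row had 251, 229.7 and 274 TPM in the replicate 1, 2 and 3 libraries, and pkm.S had 262, 239 and 216 TPM. L was above S in the replicate 3 library alone. The deposited length is 1940 bases for pkm.L and 1751 for pkm.S, whereas in the other 7 pairs both copies have the same length.

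Lactate dehydrogenase subunits A and B, known in vertebrates as the muscle and heart types, showed the reverse balance between copies. The ldha.L row had 54.8, 31.2 and 41.5 TPM in the replicate 1, 2 and 3 libraries, and ldha.S had 159.9, 165 and 161 TPM. Among the subunit B copies, ldhb.L had 52.1, 47.8 and 78.3 TPM, and ldhb.S had 472, 234 and 401 TPM. In both genes each S value was above every L value. The ldhb.S row ranked 347 among all rows, with its low value in the replicate 2 library.

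**Figure D1:**
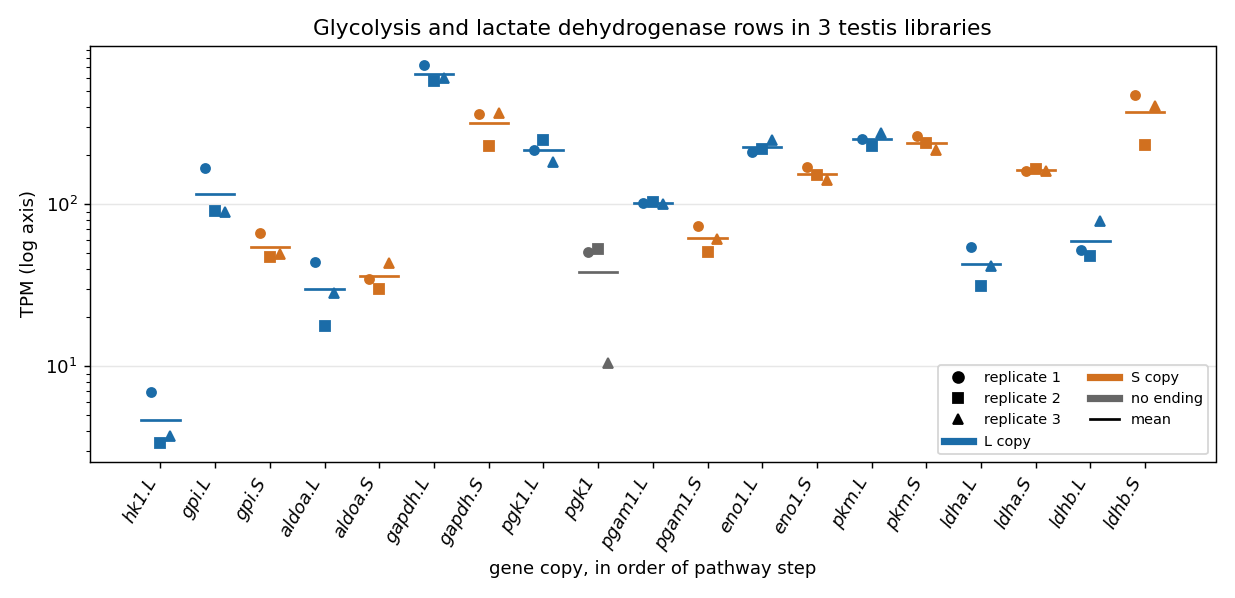
TPM on a log axis of the 19 rows of the 10 genes, in order of pathway step, with a symbol for each library, a colour for each copy and a line at the mean. The gapdh.L row is highest at a mean of 634 TPM, hk1.L is lowest at 4.66 TPM, and the S copies of ldha and ldhb lie above their L copies.

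With copies summed, gapdh led at 952 ± 144 TPM, followed by pkm at 491 ± 22.6, ldhb at 428 ± 129 and eno1 at 379 ± 8.44 (SD, n = 3 throughout). Next came pgk1 at 253 ± 55.5 TPM, ldha at 205 ± 9.21, gpi at 169.8 ± 54.5, pgam1 at 163 ± 10.54, aldoa at 65.8 ± 16.1 and hk1 at 4.66 ± 1.98. Of the 9 steps in this order, 4 held in 3 of 3 libraries: gapdh over pkm by 1.93-fold, eno1 over pgk1 by 1.52-fold, pgam1 over aldoa by 2.53-fold and aldoa over hk1 by 14.6-fold. Each of these had an exact sign-flip permutation p of 0.25, the smallest possible. The other 5 neighbours changed places in at least 1 library, and their exact permutation p ran from 0.5 to 1. These neighbours, whose order varied between libraries, were pkm and ldhb, ldhb and eno1, pgk1 and ldha, ldha and gpi, and gpi and pgam1. With 3 libraries this test could not show a difference for any neighbours, including the 4 that kept their order. The order was read from these same libraries, so these p-values describe it and do not test it independently.

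Both lactate dehydrogenase subunits were expressed, with B above A. Summed over copies, ldhb had 524, 281 and 480 TPM in the replicate 1, 2 and 3 libraries, and ldha had 215, 197 and 203 TPM. The ratio of ldhb to ldha was 2.44, 1.43 and 2.37 in these libraries, with a mean log2 ratio of 1.02 ± 0.43 (SD, n = 3). It was positive in 3 of 3 libraries (exact permutation p = 0.25 by sign flips, two-sided, the smallest possible). The ldha level hardly varied, whereas ldhb was low in the replicate 2 library. That library was the lowest of the 3 for 11 of 19 member rows and for 44.1% of all detected rows. It also had the lowest summed Sertoli markers, 575 TPM, and the highest summed spermatid markers, 2235 TPM. The replicate 2 library was the lowest of the 3 for 13 of 15 Sertoli rows, but not for clu.L or sox9.S. It was the highest for 8 of 12 spermatid rows, against 28.3% of all detected rows. Endothelium and leukocyte markers had their lowest sums there too, 30.8 and 61.3 TPM. Meiosis and skeletal muscle markers had their highest, 1239 and 249 TPM, the latter through ckm.L. The part of these cell types in the ldhb level was not tested. Of the other rows grouped with this step, ldhd.L, for a D-lactate dehydrogenase, had 2.002 ± 0.590 TPM and overlaps LOC108714170, at 3.13 ± 1.22 TPM, in the NCBI gene table, so its counts are uncertain, and uevld.L, for a protein with a lactate dehydrogenase-like domain, had 18.5 ± 2.04 TPM.

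Member genes were below another gene of their step for aldolase and hexokinase. The aldoc.L row, for the aldolase known from brain in mammals, had 156, 350.5 and 129 TPM in the replicate 1, 2 and 3 libraries, with its high value in replicate 2. Summed aldoa had 78.3, 47.6 and 71.5 TPM in the same libraries, below aldoc.L in each, and this difference was not tested.

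Hexokinase was the step with the least RNA. The hk1 row held 22.6 ± 3.10% of it and hk2, a hexokinase known from insulin-responsive tissues of mammals, 59.6 ± 8.70% (SD, n = 3). Summed hk2 had 24.9, 8.31 and 7.60 TPM, high in the replicate 1 library as hk1 was. Glucokinase, gck, summed to 0.872 ± 0.207 TPM and hkdc1, a hexokinase domain gene, to 2.51 ± 0.553 TPM. Against hk2, gck and hkdc1 together, hk1 had a log2 ratio of -1.78 ± 0.26, negative in 3 of 3 libraries.

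At the pyruvate kinase, enolase and mutase steps the member gene led. Summed pkm had 514, 469 and 489.6 TPM in the replicate 1, 2 and 3 libraries, against 109, 79.3 and 110.1 TPM for pklr, the pyruvate kinase known from liver and red cells. The log2 ratio of pkm to pklr was 2.32 ± 0.22 (SD, n = 3). Likewise eno1 had 378, 371 and 388 TPM, against 82.4, 114.5 and 109 TPM for eno3 and eno4 together, a log2 ratio of 1.91 ± 0.26. Nearly all of the eno3 and eno4 sum was eno4.L, an enolase that mouse sperm need for motility, with 81.7, 114 and 108 TPM and 21.0 ± 2.96% of the step. The muscle types were low and not detected in every library: eno3.L had 0.602 ± 0.243 TPM, and the pgam2 rows had 10, 2 and 3 counts for pgam2.L and 6, 8 and 5 counts for pgam2.S. The log2 ratio of pgam1 to pgam2 was 9.49 ± 0.36, and 7.05 after 1 TPM was added to each, so its size rests on these few counts. For each of the 5 ratios, those of ldhb, hk1, pkm, eno1 and pgam1 to the other genes of their step, the sign was the same in 3 of 3 libraries and the exact sign-flip permutation p was 0.25. None of the 5 could pass with 3 libraries, adjusted or not.

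Phosphofructokinase and triosephosphate isomerase complete the pathway. The phosphofructokinase rows summed to 90.2, 88.7 and 91.4 TPM in the replicate 1, 2 and 3 libraries, with 58.1 ± 5.86% from pfkp, the platelet type, and 41.9 ± 5.86% from pfkm, the muscle type. This was the lowest step total after hexokinase, at 21.6 ± 12.3 TPM, and the phosphofructokinase total varied little. Summed tpi1 was as steady, with 247, 243 and 253 TPM. Step totals cover rows matched by symbol only.

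**Figure D2:**
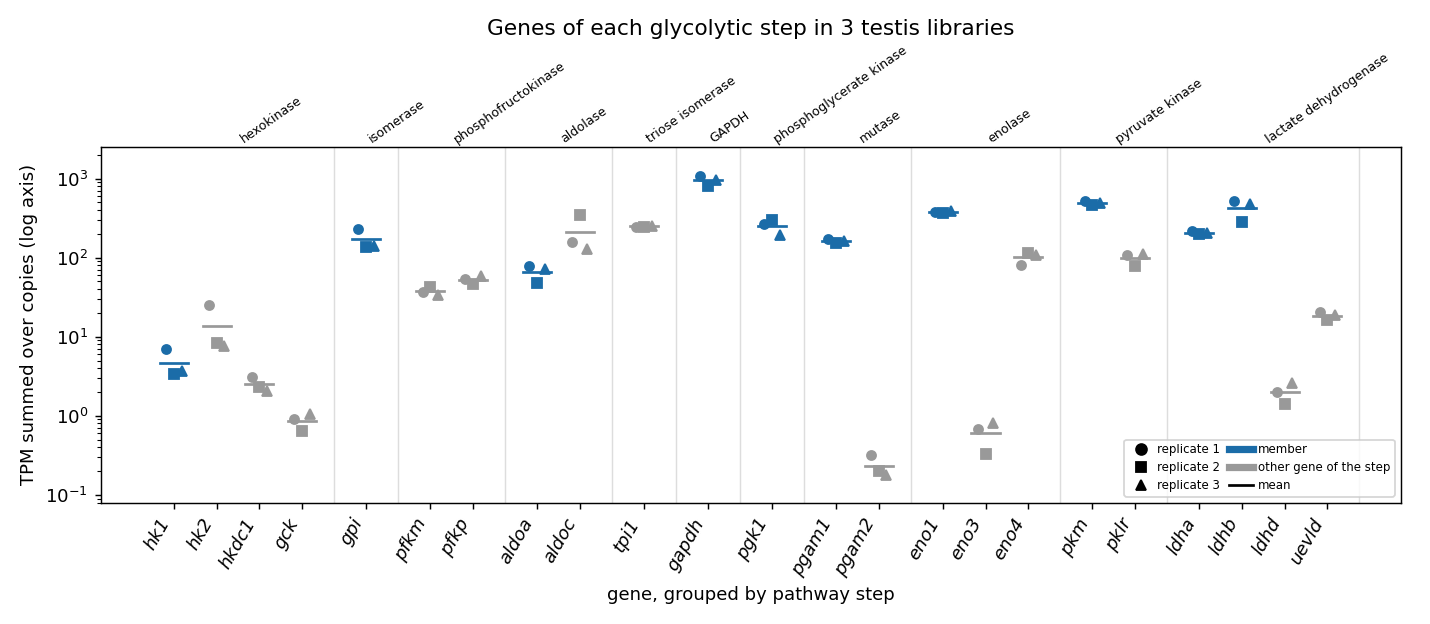
TPM summed over the copies of each gene, on a log axis, for genes grouped by pathway step, with a symbol for each library and a line at the mean. The member genes lead at the steps for pyruvate kinase, enolase and mutase, whereas aldoc at 212 TPM and hk2 at 13.6 TPM lie above aldoa and hk1.

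The L and S copies differed in 6 of the 8 pairs tested, in both directions. Of these, gpi, gapdh, pgam1 and eno1 had L higher, and ldha and ldhb had S higher. The test was edgeR's quasi-likelihood test on the counts, with the library as a block and gene length in the offset, with Benjamini-Hochberg adjustment across the 6627 pairs that had enough counts. Across those pairs 61.1% were called, 34.4% with L higher and 26.6% with S higher, and with L and S columns scaled separately the split turned to 30.4% and 31.0%. With 8 pairs, the members' count is near that background. The median absolute log2 ratio was 0.88 over the 8 pairs and 0.92 over all pairs, and L and S kept their order in 3 of 3 libraries in 6 of the 8 and in 79.8% of all.

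The widest ratio was that of ldhb, at -2.61 log2 units (adjusted p = 0.000712 in edgeR, SE 0.215), or 6.09-fold more S than L. For ldha it was -1.97 (adjusted p = 0.00108 in edgeR, SE 0.196), or 3.92-fold more S. The L share of the summed TPM was 9.93%, 17.0% and 16.3% for ldhb and 25.5%, 15.9% and 20.4% for ldha in the replicate 1, 2 and 3 libraries. Among all tested pairs ldhb ranked 936 and ldha 1467 by absolute ratio, so wider differences were common.

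The L copy was higher for gpi by 1.04 log2 units (adjusted p = 0.0025 in edgeR, SE 0.138) and for gapdh by 1.02 (adjusted p = 0.0025 in edgeR, SE 0.135), or 2.06-fold and 2.03-fold. For pgam1 it was higher by 0.74 (adjusted p = 0.0119 in edgeR, SE 0.158). For eno1 it was higher by 0.56 (adjusted p = 0.0153 in edgeR, SE 0.129), and this call was lost without the replicate 2 library (adjusted p = 0.0581, edgeR) and without the replicate 3 library (adjusted p = 0.0749, edgeR). The pairs pkm, at 0.07 (adjusted p = 0.603 in edgeR, SE 0.115), and aldoa, at -0.34 (adjusted p = 0.303 in edgeR, SE 0.259), fell short of the threshold. Without the replicate 1 library aldoa was at -0.68 and passed (adjusted p = 0.0318, edgeR).

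**Figure D3:**
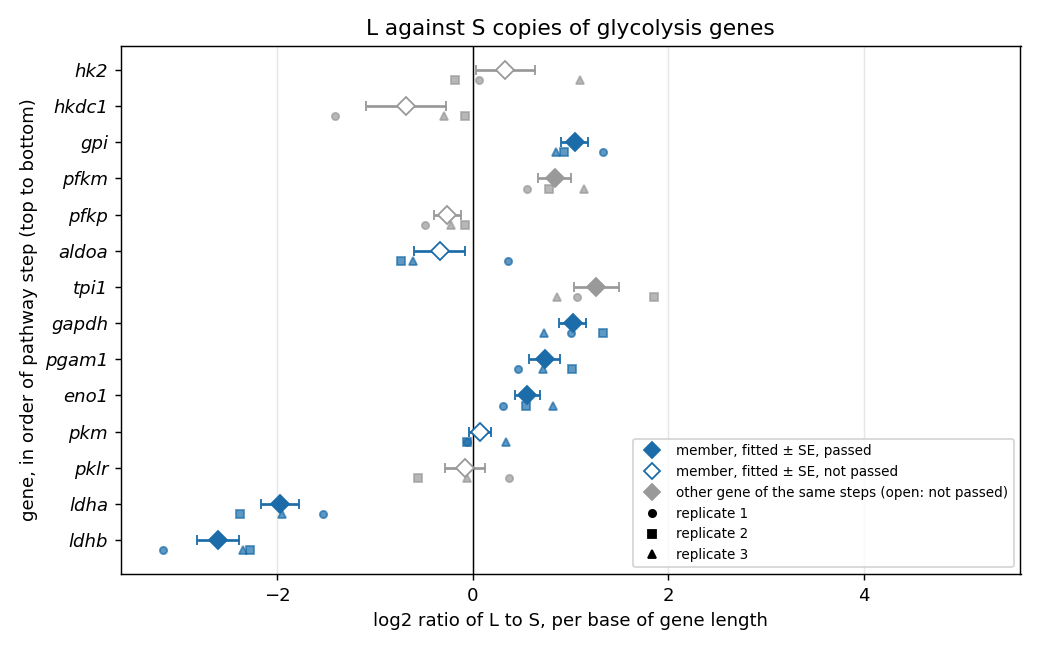
Fitted log2 ratio of L to S with its SE (diamonds) and the ratio in each library (small symbols), for the 8 member pairs and 6 other pairs of the same steps, from hexokinase at the top to lactate dehydrogenase at the bottom. The lactate dehydrogenase pairs lie at -1.97 and -2.61, left of the other pairs, and gpi, gapdh, pgam1 and eno1 lie between 0.56 and 1.04.

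Of 6 other pairs of the same steps, L was higher in 2 and S in 0, beside 34.4% and 26.6% of all pairs tested. The 2 were tpi1, at 1.26 log2 units (adjusted p = 0.00648 in edgeR, SE 0.225), and pfkm, at 0.84 (adjusted p = 0.00991 in edgeR, SE 0.169). The pfkm call was lost without the replicate 3 library (adjusted p = 0.0526, edgeR). For tpi1, L had 167, 191 and 163 TPM, and S had 79.6, 52.4 and 89.8 TPM. The values for hk2, hkdc1, pfkp and pklr were 0.33, -0.68, -0.26 and -0.08, and none of these passed. The tpi1.S row overlaps lrrc23.S in the NCBI gene table, so its counts are uncertain where strand was not used.

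The zero point of such ratios depended on the scaling. The median over all pairs was 0.15 on the log2 scale, and a separate TMM factor for each L and S column moved it to -0.01 and gave 2017 pairs with L higher and 2057 with S higher, against 2283 and 1766 before. The 6 calls among the member pairs kept their direction under that scaling. The pkm ratio turned to -0.087 and did not pass, and pfkp, at -0.42, passed with S higher (adjusted p = 0.0487, edgeR). Sequences of the copies were not used here, and reads that match both could have been dropped or split, so ratios of near-identical copies are uncertain.

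Rows of genes that feed or drain the pathway were mostly detected, beside 66.7% of all rows and 81.6% of rows with a gene name. All 10 rows of glycolysis regulators were detected, with the highest levels for pfkfb3, whose product makes the phosphofructokinase activator fructose-2,6-bisphosphate, with 48.0 ± 4.74 TPM for pfkfb3.L and 24.9 ± 3.41 for pfkfb3.S (SD, n = 3). Of 3 pairs, pfkfb4 and pfkfb3 had L higher, by 1.49 and 0.95 on the log2 scale. The pair bpgm, for bisphosphoglycerate mutase, had S higher, at -1.65. Glucose and lactate transport genes were detected in 16 of 20 rows, but most were low. The median of the 20 rows was 2.16 TPM, against 3.25 TPM over all rows. Basigin, the partner of monocarboxylate transporters, led with 101.8 ± 11.98 TPM for bsg.L and 107.5 ± 13.01 for bsg.S. The lactate transporter gene slc16a1 had 22.3 ± 1.91 TPM for L and 20.9 ± 3.39 for S. Of 6 pairs, slc16a3 had L higher (1.73) and emb had S higher (-1.99). The emb ratio rests on low levels, with means of 0.614 TPM for L and 2.14 TPM for S, and had an SE of 0.555.

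Beyond pyruvate, genes for its entry into mitochondria were detected in 20 of 21 rows, against 81.6% of rows with a gene name. The pyruvate carrier rows mpc1.S and mpc2.S had 178 ± 33.1 and 167.8 ± 10.9 TPM, and dlat.L and pdhb.S, of the pyruvate dehydrogenase complex, had 77.4 ± 4.83 and 74.4 ± 8.17 TPM (SD, n = 3). Here S was higher in 5 of 9 pairs, among them mpc1 (-2.17) and pdhb (-1.67). L was higher in 2, the kinase genes pdk1 (1.11) and pdk3 (0.97), whereas another kinase gene, pdk4, was among the 5 with S higher (-0.48). The pair pdp2, not called, is among the 9 but could not be measured. Its S row, the undetected row of the 21, has a deposited length of 8 bases and 0 TPM in every library. Gluconeogenesis genes were detected in 4 of 7 rows, a smaller share than that 81.6%. The fbp1.S row had 51.3 ± 9.97 TPM and pck2.S had 30.4 ± 11.4. Of 2 pairs, pck2 had S higher (-3.74).

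Of 25 glycogen and hexose phosphate rows, 24 were detected, against 81.6% of rows with a gene name. Phosphoglucomutase, pgm1.L, led at 97.0 ± 11.5 TPM (SD, n = 3). L was higher in 4 of 9 pairs, widest for pygb (2.72) and gale (1.65), and S in 0 of 9. All 10 pentose phosphate rows analysed were detected, led by taldo1.L, for transaldolase, at 91.9 ± 23.8 TPM and pgd.L, for phosphogluconate dehydrogenase, at 54.6 ± 9.71. Of 3 pairs, the transketolase gene tkt was called with L higher (log2 ratio 1.77) and h6pd with S higher (-1.11). The adjusted p of the pairs called in these further lists ran from 0.000498 to 0.0419 (edgeR). These counts stand beside the same background of 34.4% with L and 26.6% with S higher, or 30.4% and 31.0% under separate scaling, and none of the lists was tested against it. Separate scaling left the calls of these further lists as they were, except that fbp1 was also called with S higher.

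Across libraries the members varied about as much as other rows. Their median coefficient of variation was 19.0%, against 18.7% over 15289 detected rows with a mean in the same range and 22.0% over all detected rows. Without the replicate 3 library it was 9.86%, against 18.7% for the rows of like level, and without the replicate 1 library it was 12.3%, against 13.7%. The highest value fell in the replicate 1 library for 10 of 19 rows, and for 50.03% of all detected rows. Among members the steadiest were pgam1.L, ldha.S, pkm.L and eno1.L, with 1.26%, 1.73%, 8.71% and 8.80%. The most variable were pgk1, aldoa.L, hk1.L and gpi.L, with 62.9%, 44.1%, 42.4% and 38.3%.

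The 4 most variable rows differed in which library stood out. The hk1.L, gpi.L and aldoa.L rows were highest in the replicate 1 library, where the summed smooth muscle and Leydig markers were lowest, at 371 and 667 TPM. Of the 14 smooth muscle rows 10 were lowest there, and of the 10 Leydig rows 7 were lowest and 3 were highest. Among all detected rows 21.8% were lowest in that library. Markers of spermatogonia, erythrocytes and endothelium had their highest sums in that library. Of the 9 endothelium rows 5 were highest there. So were 8 of the 15 Sertoli rows, though the Sertoli sum was highest in the replicate 3 library. Both counts are near the 50.03% of all detected rows that were highest in the replicate 1 library. The 15 spermatogonia rows, 12 of them detected, summed to 3423, 2848 and 2796 TPM in the replicate 1, 2 and 3 libraries. The 12 erythrocyte rows, 6 of them detected, summed to 136, 116 and 62.4 TPM. In the replicate 1 library 11 spermatogonia rows were highest, but only 5 erythrocyte rows, with 6 highest in the replicate 2 library. The rows hba1.L and hbg1.L held most of the replicate 1 erythrocyte sum, at 61.7 and 58.7 TPM. Skeletal muscle rows other than ckm.L summed to 101, 56.4 and 52.3 TPM in the replicate 1, 2 and 3 libraries. Of all 17 skeletal muscle rows, 8, 5 and 4 were highest in these libraries. The row pgk1 was lowest in the replicate 3 library, where the smooth muscle and Leydig sums were highest, at 1781 and 1594 TPM. All 14 smooth muscle rows and 6 of 10 Leydig rows were highest there, against 21.6% of all detected rows. The 10 leukocyte rows, 8 of them detected, summed to 238 TPM in that library, against 82.3 and 61.3 TPM in the replicate 1 and 2 libraries. Of the leukocyte rows 9 were highest in the replicate 3 library and spi1.L was lowest there. Most of that rise was mpo.S, the myeloperoxidase gene, and without it the sums were 107 TPM in the replicate 3 library, against 80.1 and 59.8 TPM in the replicate 1 and 2 libraries. No row of these marker lists was at 0 in every library. The part of these cell types, or of processing date, in the members' differences was not tested.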

How the data were processed

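Whole testis RNA was sequenced in 3 libraries. The deposited table gives raw counts per gene and gene length, per the file headers, and TPM computed by the authors, per the file headers. The submitters' processing notes name HISAT2 and featureCounts. Versions, the strand setting, the handling of multi-mapped reads and the genome build were not given in the sources used here. Columns were assigned to libraries by the processing date in the header. Lengths are multiples of 3 for 90.9% of rows, so most were taken as coding lengths. Of the 19 member rows 15 have such a length, but the eno1 rows (1364 bases) and the pkm rows (1940 and 1751) do not. With CPM in place of TPM, the log2 ratio was 2.51 for pkm to pklr and 1.57 for eno1 to eno3 and eno4.

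From the counts, CPM were computed with TMM factors of 1.07, 0.956 and 0.979 (edgeR 4.0.16, R 4.3.3). Rows ending in .L and .S were paired (7764 pairs), and 6627 with a summed CPM of at least 1 in every library were tested in 6 columns, with a threshold of 0.05. The SE is the absolute ratio divided by the square root of F. Before single-library ratios were taken, 0.5 CPM was added to each copy. The biological coefficient of variation, edgeR's term for the spread left over in this fit, was 28.7%. It comes from L and S columns with the library as a block and does not measure spread between animals. Alternatives used DESeq2 1.42.0 and limma 3.58.1, other scalings, filters, lengths and left-out libraries. Of 34694 rows, 34693 matched the NCBI gene table for Xenopus laevis, used for names and neighbours only. Of 190 genes in the lists, 159 matched a row. Some other genes of these pathways are not reported here.

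The members, gene lists and tests were chosen with earlier results of these data known. Named, with that exception, are all rows and pairs of the members and of the other genes of their steps, up to 4 detected rows of each further list by mean TPM, and up to 2 called pairs a direction with the widest ratio. The pairs pdk4 and pdp2 are named beyond these. Genes of like pattern are not named, since 3 libraries are too few. A total of 3 counts amounts to 0.0425, 0.0439 and 0.0490 CPM in the replicate 1, 2 and 3 libraries, without the TMM factors. This converts a unit and measures no error.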

Additional observations from a re-analysis of the deposited data

How the results depend on the processing

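Leaving out a library in turn gave log2 ratios of L to S from 0.43 to 0.68 for eno1, from -0.68 to -0.13 for aldoa, from -0.059 to 0.14 for pkm, from -0.064 to 0.60 for hk2 and from -0.31 to 0.16 for pklr, and a median coefficient of variation of the members from 9.86% to 13.1%, now over 2 values a row. With L and S columns scaled separately, pkm was at -0.087. Without the length offset it was at 0.22 and did not pass (adjusted p = 0.15, edgeR). Without the replicate block, the fit called 3756 of the 6627 pairs and the same 6 member pairs in the same direction. Those 6 were also called with DESeq2, limma, DESeq2 size factors, no filter, a CPM of at least 5 and no length offset, over which all calls ranged from 3529 to 4328. The other results tried kept their direction and their side of the threshold, except pfkm, pfkp and fbp1, described above. Pairs of the further lists, fbp1 among them, were compared only under separate scaling of L and S. The cause of these shifts was not tested. With 3 libraries the sign-flip test cannot pass, so it says nothing about stability.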
